A study of Arabidopsis thaliana with 6 samples.

Results

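The genes described here encode the ERECTA family of receptor kinases and the secreted peptides that act on it in the inflorescence stem of *Arabidopsis thaliana*. They were taken by their gene identifiers, with no cut-off on expression, although earlier results of these data were known when they were chosen: the receptor genes *ERECTA* (AT2G26330), *ERL1* (AT5G62230) and *ERL2* (AT5G07180), and the ligand genes *EPFL4* (AT4G14723), *EPFL5* (AT3G22820) and *EPFL6* (AT2G30370). These are 6 of 33316 genes in the count tables. Messenger RNA was sequenced from second internodes of plants 15 to 20 cm tall, which had been dipped into 15 µM dexamethasone (DEX, 3 libraries) or into mock solution (Mock, 3 libraries) and harvested after 3 h. All plants are labelled 35S::Myc-GR-bdl, although the growth protocol names WT (Col-0), and had spent 3 weeks in days with 8 h of light followed by days with 16 h of light. No library without the transgene was analysed here, so that effects of dexamethasone itself and of the induced protein cannot be told apart. The viral 35S promoter drives the transgene broadly rather than in a chosen cell type, and each library came from several plants pooled.

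BODENLOS (BDL) is an AUX/IAA repressor of AUXIN RESPONSE FACTORs, and bdl is a stabilised form of it. Fused to the glucocorticoid receptor domain (GR), bdl stays out of the nucleus until dexamethasone is given. The comparison thus asks how transcripts of the receptor module stood 3 h after a treatment meant to block auxin responses. ERECTA family proteins are leucine-rich repeat receptor kinases of the plasma membrane, which promote stem elongation and restrict the formation of stomata. EPFL peptides are cysteine-rich, secreted and bound by the receptors from outside. In stems, *EPFL4* and *EPFL6* are known to be active in the endodermis, the layer also called the starch sheath, from where their peptides reach *ERECTA* in the phloem. Inside the cell the signal passes through the kinase YODA (YDA) and the MAP kinases below it.

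The bases in front of the receptor and ligand genes are shown because the induced bdl is a repressor of AUXIN RESPONSE FACTORs, which bind TGTC-containing elements. The 250 bases upstream of each annotated gene start were read from the RefSeq assembly TAIR10.1, and they were searched on both strands for TGTCTC and for TGTCGG, as well as for the shorter core TGTCNN, which contains both. *ERECTA* stands for the receptor with most reads, *ERL2* for the only one of the 6 windows with TGTCTC, and *EPFL4* for the ligand with the fewest DEX reads relative to Mock. Sequences run 5′ to 3′ on the strand of the gene and end at the base before its start, with every TGTCNN match in capitals. A match on the opposite strand reads NNGACA here.
ERECTA (chr2:11214663-11214912, minus strand): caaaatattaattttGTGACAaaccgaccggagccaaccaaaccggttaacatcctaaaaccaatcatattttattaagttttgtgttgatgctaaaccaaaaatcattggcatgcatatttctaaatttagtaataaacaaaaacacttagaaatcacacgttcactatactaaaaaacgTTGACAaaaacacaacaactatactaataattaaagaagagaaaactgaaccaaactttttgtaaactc
ERL2 (chr5:2233588-2233837, minus strand): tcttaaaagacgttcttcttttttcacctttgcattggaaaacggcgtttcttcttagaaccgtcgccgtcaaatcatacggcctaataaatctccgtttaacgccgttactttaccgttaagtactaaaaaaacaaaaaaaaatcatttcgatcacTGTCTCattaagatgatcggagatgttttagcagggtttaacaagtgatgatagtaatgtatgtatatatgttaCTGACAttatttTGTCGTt
EPFL4 (chr4:8439649-8439898, plus strand): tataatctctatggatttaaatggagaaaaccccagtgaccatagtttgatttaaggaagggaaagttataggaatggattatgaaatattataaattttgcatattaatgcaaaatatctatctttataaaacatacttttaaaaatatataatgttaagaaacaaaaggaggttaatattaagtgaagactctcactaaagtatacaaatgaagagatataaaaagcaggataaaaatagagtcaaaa
Counted back from the gene start to the leftmost base of a match, they lay at -235 and -69 in *ERECTA*, whereas *ERL2* had matches at -93, -19 and -7, the one at -93 being TGTCTC. The *EPFL4* window held none. *ERL1* had TGTCNN at -218 and -96, *EPFL5* at -236 and -35, and *EPFL6* at -161. None of the 6 windows held TGTCGG, and no other annotated gene lay in any of them. Of 27443 windows of this length in front of protein-coding genes, 74.5% held TGTCNN, with a median of 1 match, 10.95% held TGTCTC and 4.16% held TGTCGG. A match is a description of the letters and not of a bound site.

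Libraries held 31435470 to 37751145 gene reads in DEX and 30601253 to 37812400 in Mock, and 3 reads, the upper limit that a count of 0 allows, equalled 0.0793 to 0.0980 counts per 1000000 reads (CPM). These limits use unscaled library totals, whereas the CPM of genes below carry scaling factors. Such limits and the count intervals below cover counting error only, since the reads carry no molecular identifiers. Of 19598 genes kept by the count filter, 2327 (11.9%) were called between DEX and Mock at an adjusted p below 0.05 (edgeR quasi-likelihood test), of which 1077 (5.5%) were lower and 1250 (6.38%) higher in DEX. The median log2 fold change over these genes was -0.01. Markers of stem tissues were present, with summed xylem markers at 3079 to 4095 CPM in DEX and 3535 to 3833 CPM in Mock, while flower markers summed to at most 0.320 CPM in DEX and 0.567 CPM in Mock and root markers to at most 0.363 CPM in DEX and 0.236 CPM in Mock.

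Among the receptors, *ERECTA* was the one with substantial expression, and its transcript level was lower in DEX than in Mock by less than the spread between libraries. *ERL2* was expressed at a few percent of the *ERECTA* level per exon length, and *ERL1* had 2 to 13 reads per library. The ligands were close to absent: the 3 genes together had 6 reads in the 3 DEX libraries and 26 reads in the 3 Mock libraries. Of the 6 genes, 2 (*ERECTA* and *ERL2*) had enough reads for the test, and 0 of these 2 were called, against 11.9% of all genes tested. Neither had an unadjusted p below 0.05 with edgeR, and DESeq2 and limma-voom called 0 as well. The other 4 genes were removed by the filter and are described by their counts.

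**Figure D1:**
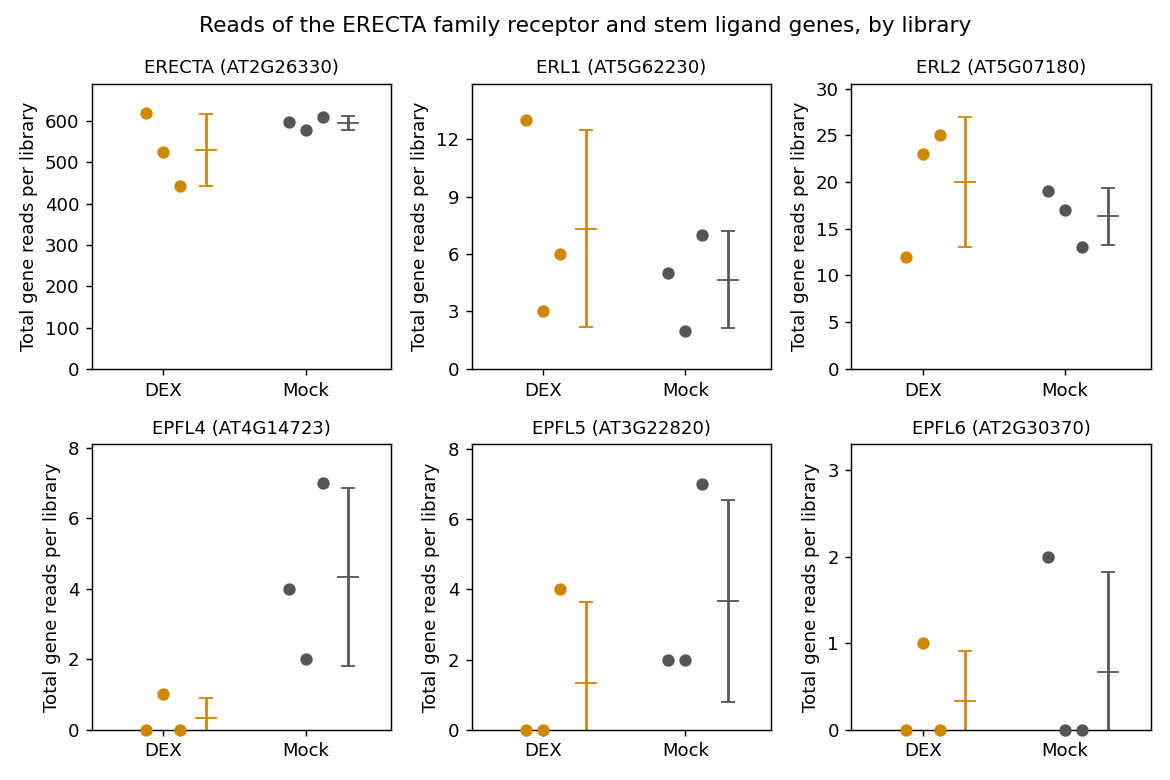
Total gene reads (vertical axis, from 0, with its own scale in each panel) of the receptor genes (upper row) and the stem ligand genes (lower row) in the DEX and Mock libraries. Points are libraries 1 to 3 from left to right, and the bar beside them is the mean with its SD, drawn down to 0 where the SD reaches below it. *ERECTA* had 444 to 619 reads in DEX and 578 to 610 in Mock, whereas no ligand gene had more than 4 reads in a DEX library or more than 7 in a Mock library.

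*ERECTA* lies on the minus strand of chromosome 2 at 11208080 to 11214662 (TAIR10.1), has 27 exons and an exon length of 3191 bases in the deposited tables. It had 619, 525 and 444 reads in the DEX libraries and 597, 578 and 610 reads in the Mock libraries. Scaled to library size, these were 17.3, 16.8 and 12.1 CPM in DEX and 19.2, 17.0 and 15.7 CPM in Mock. The groups overlapped: DEX library 3 was below all others, while DEX libraries 1 and 2 lay between Mock library 1 and Mock library 3. The means were 15.4 ± 2.85 CPM in DEX and 17.3 ± 1.77 CPM in Mock (SD, n = 3 each). The log2 fold change was -0.17 ± 0.15 (SE), with an adjusted p of 0.600 in the edgeR quasi-likelihood test. Its 95% interval ran from -0.53 to 0.19, which leaves room for a level in DEX between 0.692 and 1.14 times that in Mock. Without DEX library 3 the log2 fold change was -0.02, and without DEX library 1 it was -0.26, with the test missed in either case.

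The reads of *ERECTA* came from spliced and uniquely placed transcripts. All 3373 of them were unique, and 37.7% of its exon reads spanned an exon junction, with 594 junction reads in DEX and 674 in Mock. Reads over introns numbered 1, 1 and 1 in DEX and 2, 5 and 0 in Mock. No annotated gene overlaps *ERECTA*, so its counts do not depend on how the counting treated strand.

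Per exon length, *ERECTA* stood at 5.17, 5.22 and 3.68 RPKM (reads per kilobase of exon, scaled to library size) in DEX and at 6.09, 5.43 and 5.04 RPKM in Mock. On this scale too DEX library 3 was the lowest, and DEX libraries 1 and 2 lay within the range of Mock. The means were 4.69 ± 0.876 RPKM in DEX and 5.52 ± 0.533 RPKM in Mock (SD, n = 3 each). Its mean over the 6 libraries took rank 13247 among 19006 tested genes with an exon length, whose median was 11.3 RPKM, so that 69.7% of them were more abundant. Among 133 tested genes whose RefSeq product names both leucine-rich and kinase, *ERECTA* took rank 67, the middle of that class. Genes with other product names, among them *ERL2*, *BAK1* and the SERK genes, are not in it. Of this class, which was put together after its values were known, 36 genes (27.1%) were called, 28 of them lower and 8 higher in DEX, beside 11.9% of all genes, and *ERECTA* was not among them.

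*ERL2*, a close relative that shares functions with *ERECTA*, lies on the minus strand of chromosome 5 at 2227439 to 2233587, with 27 exons and an exon length of 3305 bases. Its reads numbered 12, 23 and 25 in DEX and 19, 17 and 13 in Mock. DEX library 1 was the lowest of the 6 and the other DEX libraries were the highest, so that the groups overlapped. In CPM these were 0.335, 0.735 and 0.681 in DEX and 0.611, 0.501 and 0.335 in Mock, with means of 0.584 ± 0.217 in DEX and 0.482 ± 0.139 in Mock (SD, n = 3 each). The log2 fold change was 0.28 ± 0.39 (SE) with an adjusted p of 0.750 (edgeR quasi-likelihood test). The 95% interval, from 0.647 to 2.28 times the Mock level, was wider than that of *ERECTA*. With 109 reads in all, it includes both lower and higher levels in DEX. All reads of *ERL2* were unique, none lay over introns, and 19 in DEX and 26 in Mock spanned junctions.

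*ERL1*, the other relative, lies on the plus strand of chromosome 5 at 24996129 to 25002439 and has an exon length of 3415 bases. It had 13, 3 and 6 reads in DEX and 5, 2 and 7 reads in Mock, all of them unique. The highest count, in DEX library 1, was more than all other DEX libraries together, and the groups overlapped. The summed counts, 22 in DEX and 14 in Mock, gave a ratio of 1.57 after correction for library size, with an exact 95% interval of 0.769 to 3.32. Without DEX library 1 the ratio was 0.982. The 12 reads across junctions were 7, 0 and 0 in DEX and 1, 0 and 4 in Mock. *ERL1* overlaps AT5G62240 on the opposite strand, and the sources used here do not say whether strand entered the counting. Reads without a junction that lie in the shared stretch may thus belong to either gene, and how many do so was not examined.

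Per exon length, the receptor family was dominated by *ERECTA* in each library. *ERL2* was at 0.0968, 0.221 and 0.200 RPKM in DEX and at 0.188, 0.156 and 0.104 RPKM in Mock, and *ERL1* at 0.102, 0.0279 and 0.0465 RPKM in DEX and at 0.0478, 0.0177 and 0.0542 RPKM in Mock. *ERECTA* made up 96.3%, 95.4% and 93.7% of the summed receptor RPKM in DEX and 96.3%, 96.9% and 97.0% in Mock. The lowest share was in DEX library 3, which also had the lowest *ERECTA* level, and DEX library 1 fell within the Mock range. The mean share was 95.2% ± 1.32 in DEX and 96.7% ± 0.379 in Mock (SD, n = 3 each), a difference of -1.56 percentage points that is given as a description.

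The stem ligand genes had few reads in either group, and their sum was lower in DEX. *EPFL4*, on the plus strand of chromosome 4 at 8439899 to 8440901 with 2 exons and an exon length of 744 bases, had 0, 1 and 0 reads in DEX and 4, 2 and 7 reads in Mock. Every Mock library was above every DEX library, on counts of a few reads. The ratio of the summed counts, 1 in DEX and 13 in Mock, was 0.0769 after correction for library size, with an exact 95% interval of 0.00181 to 0.512 that covers counting error only. Across libraries, an exact two-sided permutation test of CPM gave p = 0.1, the smallest value that 3 against 3 libraries allow. With the filter lifted, edgeR's quasi-likelihood test gave an unadjusted p of 0.0155 and an adjusted p of 0.116 at a log2 fold change of -3.26 ± 1.08 (SE), so *EPFL4* did not pass. For the other genes removed by the filter, this test gave unadjusted p-values of 0.358 for *ERL1*, 0.253 for *EPFL5* and 0.658 for *EPFL6*. For *EPFL4* the authors' RPKM, which counts exon reads alone, was 0, 0.0428 and 0 in DEX and 0.176, 0.0407 and 0.249 in Mock. On this scale DEX library 2 was just above Mock library 2.

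*EPFL5*, on the minus strand of chromosome 3 at 8073258 to 8074178 with an exon length of 581 bases, had 0, 0 and 4 reads in DEX and 2, 2 and 7 reads in Mock. All DEX reads came from library 3, which exceeded Mock libraries 1 and 2. Its summed counts, 4 in DEX and 11 in Mock, gave a ratio of 0.364 with an exact 95% interval of 0.0845 to 1.23, which includes equal levels. The exact two-sided permutation test of CPM gave p = 0.3. In RPKM *EPFL5* was at 0, 0 and 0.182 in DEX and at 0.112, 0.104 and 0.319 in Mock. *EPFL4* and *EPFL5* had 1 read each across a junction, both in Mock library 3.

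*EPFL6*, also called CHALLAH and known to promote stem growth together with *EPFL4*, lies on the minus strand of chromosome 2 at 12940349 to 12942829 with an exon length of 1057 bases. It had 0, 1 and 0 reads in DEX and 2, 0 and 0 reads in Mock. Both groups were under 3 reads, which corresponds to 0.0266 RPKM over the DEX libraries and 0.0280 RPKM over the Mock libraries, and no ratio is given. Its share of the summed ligand RPKM, which rests on these 3 reads, was 41.3% and 0% in DEX libraries 2 and 3 and 17.7%, 0% and 0% in Mock, and it was undefined in DEX library 1, which had no ligand read. At this depth the 3 reads were too few to measure a level in either group, and 1 of them, in Mock library 1, spanned a junction.

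Summed over the ligands, reads numbered 0, 2 and 4 in DEX and 8, 4 and 14 in Mock. DEX library 3 equalled Mock library 2 in reads, so that raw counts touched although the DEX library was deeper. The ratio of the group sums was 0.231 with an exact 95% interval of 0.0777 to 0.573, and this direction was set by *EPFL4* and *EPFL5*, which held all but 3 of the 32 reads. That interval covers counting error only. Across libraries, an exact two-sided permutation test of the summed CPM gave p = 0.1, the smallest value possible with this number of libraries. The same permutation test of the summed RPKM gave p = 0.2. Without library 3 of either group 2 reads remained in DEX and 12 in Mock. Relative to the receptors, the summed ligand RPKM was 0%, 1.33% and 4.65% of the summed receptor RPKM in DEX and 5.53%, 2.58% and 10.9% in Mock. The mean was 1.99% ± 2.39 in DEX and 6.34% ± 4.23 in Mock (SD, n = 3 each), with DEX library 3 above Mock library 2.

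Genes taken as markers of the starch sheath, where *EPFL4* and *EPFL6* are known to be active, differed among themselves, and their sum was lower in DEX. Their summed level was 36.2 to 41.2 CPM in DEX and 89.3 to 103 CPM in Mock, without overlap, and 2 of 4 were called lower in DEX, beside 5.5% of all genes (edgeR quasi-likelihood test, adjusted p below 0.05). Most of the difference in the sum came from *PIN3*, with means of 3.02 CPM in DEX and 44.7 CPM in Mock. The authors describe its protein as one of the exporters that spread auxin laterally across the cambial zone. *PIN3* is thus not particular to the starch sheath, and the sum is not a measure of that layer. The called genes were *SHR*, a transcription factor of radial patterning, with a log2 fold change of -0.86, and the auxin exporter gene *PIN3* with -3.90. The endodermal regulator *SCR* at -0.05 and the gravitropism factor *SGR5* at -0.38 did not pass, and all 4 genes had at least 82 reads in each library. Markers of the phloem, where *ERECTA* is known to act, summed to 255 to 317 CPM in DEX and 302 to 375 CPM in Mock with 0 of 3 called. Their log2 fold changes differed in sign, with -0.50 for *SUC2*, 0.44 for *APL* and 0.07 for *AHA3*. Epidermal markers summed to 448 to 495 CPM in DEX and 441 to 460 CPM in Mock with 0 of 4 called. In whole internodes fewer cells of a type and less RNA per cell cannot be told apart. The part of the starch sheath in the ligand counts was not tested.

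In order of mean RPKM over the DEX libraries, *ERECTA* was followed by *ERL2*, *EPFL5*, *ERL1*, *EPFL4* and *EPFL6*, and over the Mock libraries by *EPFL5*, *EPFL4*, *ERL2*, *ERL1* and *EPFL6*. The step from *ERECTA* to the next gene exceeded the spread in all 6 libraries. Below *ERECTA*, neighbours in either order had overlapping ranges, apart from *ERL2* and *ERL1* in Mock.

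**Figure D2:**
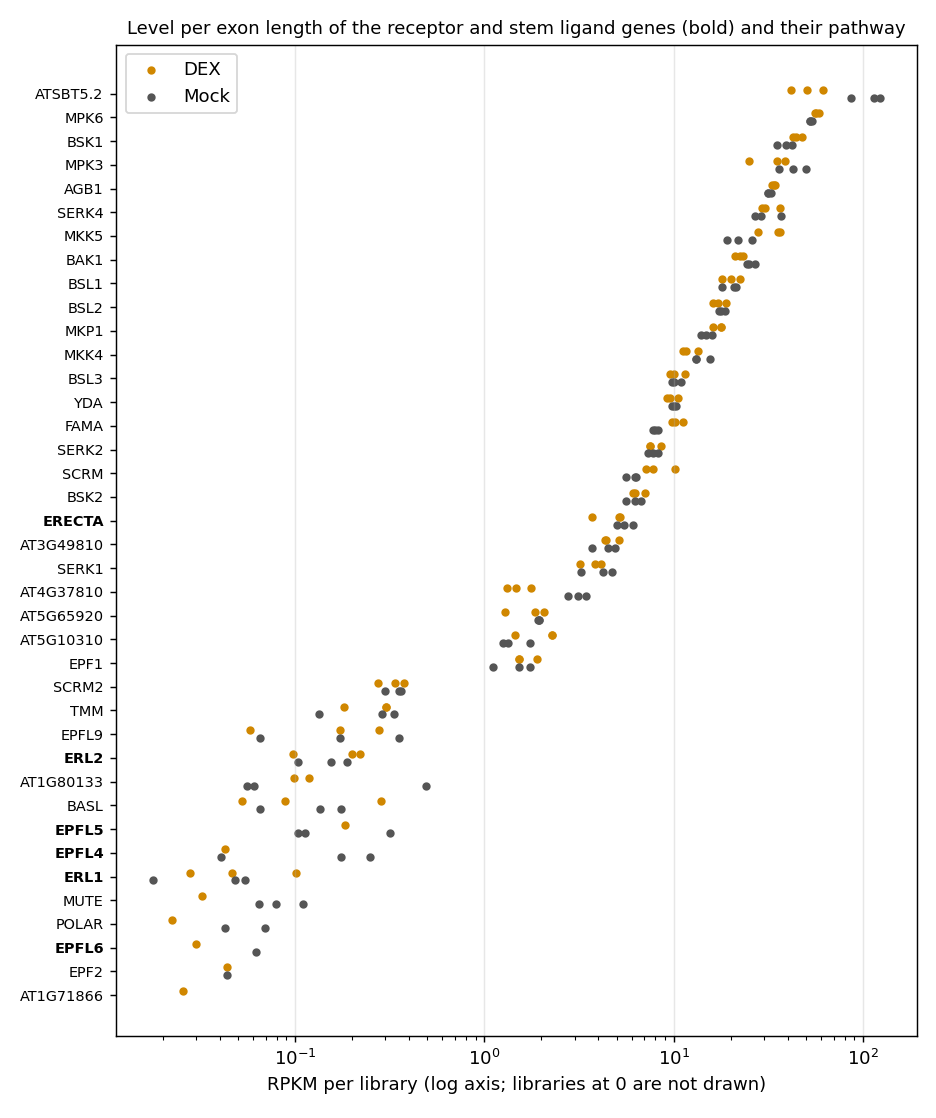
RPKM of single libraries (horizontal log axis) for the receptor and ligand genes (bold) and other genes of the pathway, sorted by the mean over all 6 libraries, with DEX above Mock in each row. Libraries with a value of 0 are not drawn. *ERECTA* lies between 3.68 and 6.09 RPKM in the middle of the plot, and the other receptor and ligand genes lie below 0.4 RPKM.

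Most tested genes of the surrounding pathway were more abundant than *ERECTA* per exon length, and few of them were called. Of 36 further genes, 26 were kept by the count filter, 2 of which were called lower and 2 higher in DEX, while 22 did not pass. This is 15.4% of those tested, beside 11.9% of all genes, and their median log2 fold change was 0.10, beside -0.01 over all genes. Of the 10 genes removed by the filter, 3 had no read in any library: *SPCH*, which starts the stomatal lineage, the protease gene *SDD1*, and AT3G13898, annotated as an EPIDERMAL PATTERNING FACTOR-like protein.

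Among 8 other genes of the peptide family, 3 were tested and 1, AT4G37810, was called. This gene, annotated as an EPIDERMAL PATTERNING FACTOR-like protein, had 0.809, 0.863 and 1.06 CPM in DEX and 2.06, 1.59 and 1.78 CPM in Mock. All DEX libraries were below all Mock libraries, and the log2 fold change was -0.98 ± 0.21 (SE) with an adjusted p of 0.025 (edgeR quasi-likelihood test). The call was lost, with adjusted p-values of 0.0632 to 0.0902, when any 1 library other than DEX library 3 was left out. At 1.51 RPKM in DEX and 3.11 RPKM in Mock it was the most abundant gene of the family in Mock, above *EPFL4*, *EPFL5* and *EPFL6* in each library. *EPF1*, a repressor of stomatal formation, with a log2 fold change of 0.23, and AT5G10310 with 0.56 did not pass. *EPFL9*, known as stomagen, which promotes stomata through the same receptors, had 1, 4 and 3 reads in DEX and 6, 1 and 3 reads in Mock.

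None of 5 co-receptor genes was called. SERK proteins pair with ERECTA family receptors when a ligand is bound. *SERK4*, the most abundant, had means of 32.0 RPKM in DEX and 30.9 RPKM in Mock with a log2 fold change of 0.12 ± 0.14 (SE, adjusted p 0.689, edgeR quasi-likelihood test), and *BAK1* had 22.1 RPKM in DEX and 25.5 RPKM in Mock with -0.13 ± 0.08 (adjusted p 0.425). Both were thus severalfold above *ERECTA* per exon length. *TMM*, which encodes a receptor-like protein without a kinase domain that modulates ERECTA signalling in the epidermis, had only 0.261 RPKM in DEX and 0.252 RPKM in Mock.

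Of 11 genes for the kinase cascade, the BSK and BSL proteins and the G protein subunit AGB1, 1 was called. *MKK5*, a MAP kinase kinase downstream of YDA, had 60.5, 57.0 and 45.7 CPM in DEX and 40.6, 33.8 and 29.5 CPM in Mock. The groups did not overlap, and the log2 fold change was 0.65 ± 0.15 (SE) with an adjusted p of 0.0297 (edgeR quasi-likelihood test). This call was lost without DEX library 1, DEX library 2, Mock library 2 or Mock library 3, with adjusted p-values of 0.0798 to 0.122, and *MKK5* overlaps AT3G21230 on the opposite strand. *YDA* at 0.03, *MPK3* at -0.31 and *MPK6* at 0.17 on the log2 scale did not pass.

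Among 5 genes for receptor turnover, ligand processing and MAP kinase dephosphorylation, 4 were tested and 1 was called. *ATSBT5.2* (AT1G20160), which encodes a subtilisin-like protease known to cleave the EPF2 precursor, had 108, 127 and 157 CPM in DEX and 213, 298 and 276 CPM in Mock. All DEX libraries were below all Mock libraries. The log2 fold change was -1.01 ± 0.18 (SE) with an adjusted p of 0.00999 (edgeR quasi-likelihood test), and it stayed called in all 18 alternatives. The *EPF2* gene had 1 read in DEX and 1 read in Mock.

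Of 7 stomatal regulators, 3 were tested and 1 was called. *FAMA*, a transcription factor that completes guard cell formation, had 20.6, 17.2 and 18.4 CPM in DEX and 13.7, 14.2 and 13.3 CPM in Mock. The groups did not overlap and the log2 fold change was 0.45 ± 0.10 (SE) with an adjusted p of 0.0249 (edgeR quasi-likelihood test). The call was lost without DEX library 1 or any 1 Mock library, with adjusted p-values of 0.0681 to 0.0846. *SCRM*, with a log2 fold change of 0.53 and groups that did not overlap, missed the threshold in the edgeR test (adjusted p 0.0595). *SCRM2*, at 0.06, did not pass either. *FAMA* is also known to be expressed in myrosin cells, and the cells behind its difference were not tested.

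**Figure D3:**
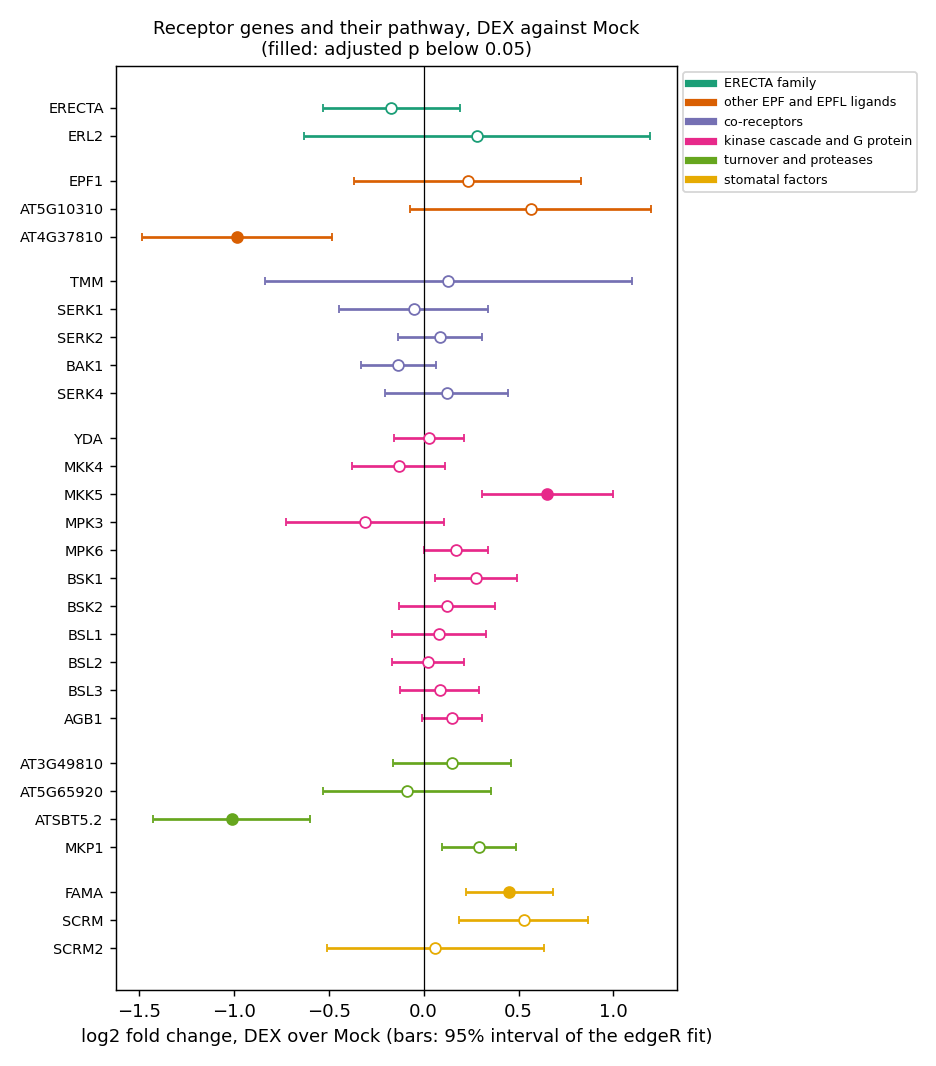
log2 fold change of DEX over Mock (horizontal axis) with its 95% interval for the tested receptor genes and the 26 tested genes of their pathway, coloured by role. Filled points passed an adjusted p of 0.05 in the edgeR quasi-likelihood test. *ERECTA* at -0.17 and *ERL2* at 0.28 have open points with intervals across 0, and filled points are AT4G37810 and *ATSBT5.2* on the negative side and *MKK5* and *FAMA* on the positive side.

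Profiles over the 6 libraries were compared with those of genes of at least 1 CPM, as a description. The genes most like *ERECTA*, of 18009 compared, were AT3G03960, which encodes a chaperonin of the TCP-1/cpn60 family, with a Pearson r of 0.999 of log2(CPM + 0.1), and *HSP91* with 0.997. AT3G03960 had 103, 102 and 79.2 CPM in DEX and 112, 102 and 95.1 CPM in Mock, and like *ERECTA* it was lowest in DEX library 3 and highest in Mock library 1. With 6 points from the same libraries a high r is weak evidence of a link, and 861 of the 18009 genes were above 0.9 for *ERECTA*. For *ERL2*, the laccase gene *IRX12* with 0.988 and AT3G52670 with 0.985 were the most similar, and 19 genes were above 0.9. This r takes no account of the size of a difference. *IRX12* varied little, with 823, 948 and 936 CPM in DEX and 930, 900 and 840 CPM in Mock, whereas *ERL2* rests on few reads.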

How the data were processed

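RNA was sequenced from 3 DEX and 3 Mock libraries, grouped by the treatment and title in the labels. The authors aligned single-end reads to TAIR10 with CLC Genomics Workbench. Library preparation used dUTP, and the sources used here do not say whether counting used strand. The deposited tables give counts per gene (total, unique, exon, junction and intron reads) and RPKM, which the authors computed from exon reads, exon length and total gene reads. The exon length in the deposited tables is in bases, and 6118 genes have none. Each table had 33323 entries, of which 5 without a gene name held 0.093% to 0.135% of the reads and were left out. Counts of 2 identifiers found on more than one entry were summed.

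Total gene reads were tested with edgeR 4.0.16 in R 4.3.3 (filterByExpr, TMM, quasi-likelihood F test, two-sided, Benjamini-Hochberg over 19598 genes, 13718 removed). CPM are TMM-scaled. The biological coefficient of variation was 15.8%. Between replicates the chi-square per degree of freedom was 22.5 to 69.4, so none was a duplicate. Whether the replicates came from separate batches of plants is only partly stated, and p-values measure the spread between these libraries. The test was checked on simulated counts with changes set only in genes more abundant than *ERL2*, so this check does not cover low counts. Genes under the filter were compared by summed counts with exact Clopper-Pearson intervals. The scaling and filter choices, DESeq2 1.42.0, limma 3.58.1 (voom, and log2(RPKM + 0.1) and log2(RPKM + 1)), unique and exon reads, a replicate block and leaving out each library were alternatives.

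The genes, the pathway lists and the markers were chosen with earlier results of these data known. Pathway genes were named where called, or as the most abundant of a list without a call, and further ones were named after their values were seen. The planned share of EPFL6 among the ligands and the log2 ratio of ligands to receptors are undefined in DEX library 1, which had 0 ligand reads, and were not tested. A comparison of the proteins was not made. One flower marker, SEP3, was not analysed here. Gene positions and promoter windows come from RefSeq TAIR10.1, whereas the tables hold no coordinates.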

Additional observations from a re-analysis of the deposited data

How the results depend on the processing

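The log2 fold change of *ERECTA* missed the threshold in all 18 alternatives (-0.26 to -0.02, adjusted p 0.247 to 0.935), and that of *ERL2* in all 17 that gave a value (0.03 to 0.57, adjusted p 0.446 to 0.958); a filter of 1 CPM in 3 libraries removed *ERL2*. Leaving out 1 library gave -0.26 to -0.02 for *ERECTA* and 0.07 to 0.57 for *ERL2*. The ratio of *ERL1* was 0.982 to 1.97 in these fits and turned to 0.982 without DEX library 1, and those of *EPFL4* (0 to 0.119) and *EPFL5* (0 to 0.626) stayed below 1. With the replicate number as a block, *ERECTA* was at -0.18 and *ERL2* at 0.28, while 1722 genes were called lower and 2258 higher, 3 and 5 of them in the pathway. The numbers share no stated origin: same-numbered libraries deviated together at r = 0.516, 0.0188 and 0.506, and DEX library 2 correlated best with Mock library 1 (0.127). Without 1 library, 690 to 1000 genes were called lower and 615 to 1198 higher, fewest without Mock library 2, and 1 to 2 pathway genes lower and 0 to 2 higher. DESeq2 called 4 pathway genes higher, and limma on RPKM with either pseudocount called 0, with *MKK5* at adjusted p 0.0519 and 0.0587 and *FAMA* at 0.0575 and 0.0646. The causes were not tested. With 14, 15 and 3 reads in all, depth limits *EPFL4*, *EPFL5* and *EPFL6*.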
